A study of Mus musculus with 2 samples.

Results

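Store-operated calcium entry and calcineurin link antigen receptor signalling to NFAT transcription factors in T cells. Inositol trisphosphate receptors release calcium from the endoplasmic reticulum, STIM sensors detect the emptied store, and ORAI channels in the plasma membrane then open. The calcium that enters binds calmodulin, which activates the phosphatase calcineurin, and calcineurin dephosphorylates NFAT proteins so that they move to the nucleus. The 10 genes described here encode the channel pore (Orai1), the store sensor (Stim1), a release channel (Itpr1), 3 catalytic subunits and 1 regulatory subunit of calcineurin (Ppp3ca, Ppp3cb, Ppp3cc and Ppp3r1), and 3 proteins that bind and restrain calcineurin (Rcan1, Rcan3 and Cabin1). They were chosen by gene symbol, and all 10 were found among the 32285 genes counted in both libraries.

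All 10 are annotated as protein-coding (GENCODE M21, mm10) and they lie on 9 chromosomes. Stim1 lies on chromosome 7 (102267806 to 102437319, plus strand), Itpr1 on chromosome 6 (108213096 to 108551109, plus) and Rcan1 on chromosome 16 (92391953 to 92470867, minus). Ppp3ca lies on chromosome 3 (136670124 to 136937727, plus), Ppp3cb and Ppp3cc on chromosome 14 (20499364 to 20546573 and 70217865 to 70289471, both minus) and Ppp3r1 on chromosome 11 (17159263 to 17200375, plus). Rcan3 lies on chromosome 4 (135412308 to 135433853, minus) and Cabin1 on chromosome 10 (75646112 to 75764341, minus).

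One library, here called deficient-labelled, was made from CD8 T cells of C57/B6N mice that carry floxed Nfatc1 together with Cd4-Cre (Nfatc1f/f×Cd4-Cre). The Cd4 promoter drives Cre in developing thymocytes that go on to become either CD4 or CD8 T cells, so deletion is not limited to cultured Tc17 cells. The other library, here called wild-type-labelled, came from C57/B6N wild-type mice. In both, CD8 T cells were taken from mesenteric lymph nodes and polarised in culture into Tc17 cells, which secrete interleukin-17. A 3 h stimulus with 100 ng/ml PMA plus 10 μg/ml ionomycin followed. Ionomycin carries calcium across membranes and so bypasses the antigen receptor. The sources used here do not give the age of the mice, their number or whether animals were pooled.

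Each group was 1 library, so no test was run, no difference has a replicate check, and each 95% interval covers counting error only. Intervals of levels and of ratios also leave out the spread between cells. The deficient-labelled library held 709 cells and 17898193 UMIs (unique molecular identifiers, one per captured transcript), and the wild-type-labelled library held 1018 cells and 24452538 UMIs. Their median depths were 21436 and 20906 UMIs per cell, and the libraries shared 0 cell barcodes. The 5 CD8 T-cell markers (Cd3e, Cd3d, Trac, Cd8a and Cd8b1) summed to 1779 and 1692 CPM (the gene's UMIs as counts-per-million of the library's UMIs), with at least 3 of them in 97.3% and 98.0% of cells, while Cd4 stood at 0.391 and 0.450 CPM. Marker lists of B cells, myeloid cells, NK cells, dendritic cells and stroma summed to 1.06 to 28.3 CPM per list in the deficient-labelled and 1.39 to 22.0 CPM in the wild-type-labelled library. Ncr1 and Klrb1c (NK cells), Siglech and Clec9a (dendritic cells) and Col3a1 (stroma) were at 0 in both. Ighm (26.8 and 16.8 CPM) and Pecam1 (13.4 and 22.0 CPM) made up most of the B-cell and stroma sums, and the part of such cells in the results was not tested. Nfatc1 itself stood at 136 CPM in the deficient-labelled and 39.8 CPM in the wild-type-labelled library. That ratio of 3.42 (3.17 to 3.68) runs against the genotype labels. The 3′ kit need not read the deleted part, and neither this nor an exchange of the labels was tested. Every direction below therefore rests on the labels.

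Promoter sequence is shown for Orai1, the gene of the 10 that differed most between the libraries, and for the inner start of Rcan1, which is known as a calcineurin and NFAT target. Each is the 250 bases before a RefSeq transcript start, 5′ to 3′ on the gene's strand (GRCm38.p6), and capitals mark GGAAA, the core letters of NFAT sites, or its reverse complement TTTCC. The Orai1 window lies at chr5:123014824-123015073, plus strand, and the Rcan1 window at chr16:92400079-92400328, minus strand.
Orai1: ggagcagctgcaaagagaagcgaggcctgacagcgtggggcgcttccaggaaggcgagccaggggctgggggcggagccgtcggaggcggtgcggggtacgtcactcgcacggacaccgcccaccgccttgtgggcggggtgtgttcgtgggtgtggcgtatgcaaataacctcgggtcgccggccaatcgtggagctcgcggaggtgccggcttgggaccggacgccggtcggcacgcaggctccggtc
Rcan1: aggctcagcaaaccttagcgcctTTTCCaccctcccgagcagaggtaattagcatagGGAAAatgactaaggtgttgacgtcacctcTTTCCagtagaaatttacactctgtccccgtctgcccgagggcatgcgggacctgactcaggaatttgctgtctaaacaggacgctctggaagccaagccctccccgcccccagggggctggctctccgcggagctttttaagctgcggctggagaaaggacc
The letters GGAAA occurred 0 times on either strand in the Orai1 window and 3 times in the Rcan1 window, starting 227, 193 and 163 bases before the start. Among the 7 of 10 genes matched in the RefSeq promoter table, at least 1 match was present for 3 genes (Ppp3cb, Rcan1 and Rcan3) and in 3 of 8 windows, against 55.6% of 32851 windows of the same length over all genes, and 3 or more matches were present in 6.39% of them. A match is a description of letters and not a binding site, and its absence says only that these letters are not in this window.

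Orai1, which encodes the pore of the store-operated channel, was the only 1 of the 10 genes past 2-fold between the libraries. Orai1 (ENSMUSG00000049686, mm10 chromosome 5, 123015074 to 123030456, plus strand) had 5213 UMIs, or 291 CPM (283 to 299), in the deficient-labelled library and 2639 UMIs, or 108 CPM (104 to 112), in the wild-type-labelled one. That is a 2.70-fold ratio with a counting interval of 2.57 to 2.83. Of 7 genes among the 10 that reached 20 CPM in at least 1 library, 1 lay past 2-fold on the higher side, on a scale of log2(CPM + 1), and 0 on the lower side, against 2.27% and 2.08% of the 5584 genes that reached 20 CPM in all. Counted from the highest ratio of deficient-labelled over wild-type-labelled, Orai1 was number 67 of those 5584 genes, a place that turns round if the labels are exchanged. An antisense gene at the same locus, Gm2479, had 1.84 and 2.13 CPM in the deficient-labelled and wild-type-labelled library, and the sources used here do not say whether counting used strand.

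The difference in Orai1 did not rest on a few cells. Thinning, which draws 5000 UMIs at random from every cell, left an Orai1 UMI in 72.8% of 698 deficient-labelled cells (69.3 to 76.1, exact binomial) and in 36.6% of 1004 wild-type-labelled cells (33.6 to 39.6). Before thinning these shares were 93.7% and 75.8%. The median cell held 1 Orai1 UMI per 5000 in the deficient-labelled library and 0 in the wild-type-labelled one, and 3 or more were found in 21.1% and 4.48% of cells. The 3 cells with the most Orai1 UMIs held 2.23% and 2.35% of the gene's UMIs. No cell type that lacks these genes was present, so the level that free RNA gives was not measured for them.

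**Figure D1:**
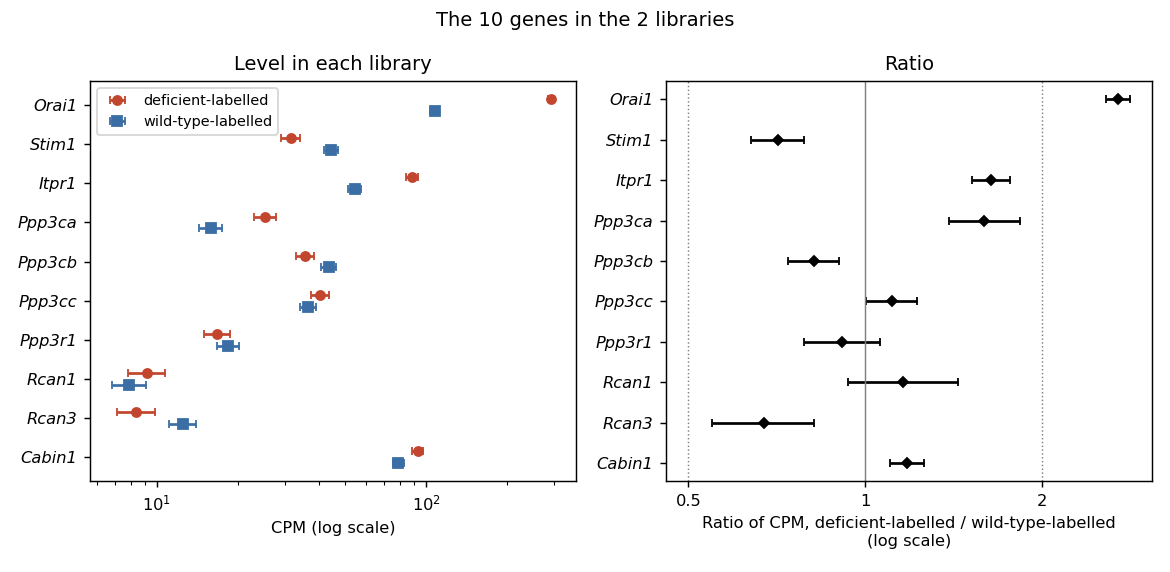
Left, the level of each of the 10 genes (CPM, log scale) in the deficient-labelled (circles) and wild-type-labelled (squares) library with exact Poisson 95% intervals. Right, the ratio of the 2 levels (log scale) with its 95% counting interval and dotted lines at 0.5 and 2; only Orai1, at 2.70, lies past 2-fold, and Stim1, Ppp3cb, Ppp3r1 and Rcan3 lie below 1.

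**Figure D2:**
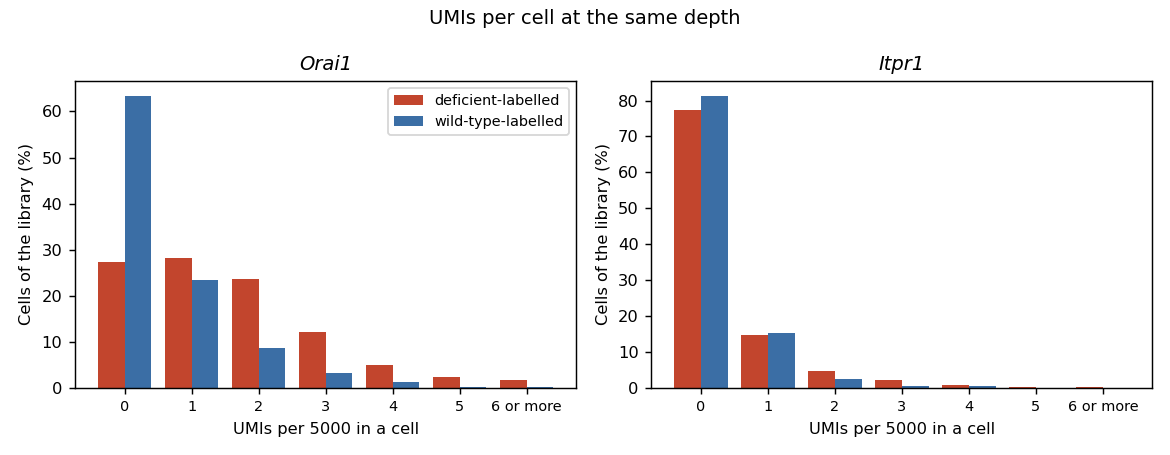
Share of cells (%) of each library by the number of UMIs of Orai1 (left) and Itpr1 (right) after thinning to 5000 UMIs per cell; bars on the left of each pair are the 698 deficient-labelled cells and bars on the right the 1004 wild-type-labelled cells. For Orai1, the cells with 0 were 27.2% of the deficient-labelled and 63.4% of the wild-type-labelled ones; for Itpr1 these shares were 77.5% and 81.4%.

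Stim1, the calcium sensor of the endoplasmic reticulum that opens ORAI1, went the other way from Orai1. It stood at 31.5 CPM (28.9 to 34.2) in the deficient-labelled and 44.3 CPM (41.7 to 47.1) in the wild-type-labelled library, a ratio of 0.710 (0.640 to 0.786) that did not reach 2-fold. With a thinned depth of 5000 UMIs, a Stim1 UMI was found in 12.03% (9.71 to 14.7) and 16.2% (14.01 to 18.7) of cells, and these intervals overlap. When both libraries were weighted to the same shares of 8 cytokine classes, defined below, the log2 ratio was -0.09 instead of -0.48. That weighting took in small classes, among them 26 wild-type-labelled cells with Ifng and Il2 that held 10 Stim1 UMIs.

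Itpr1, encoding the type 1 inositol trisphosphate receptor, was at 88.8 CPM (84.5 to 93.3) in the deficient-labelled and 54.3 CPM (51.4 to 57.3) in the wild-type-labelled library. The ratio of 1.64 (1.52 to 1.76) was under 2-fold. Its UMIs were unevenly spread over cells. In the deficient-labelled library 3 cells with 76, 73 and 43 Itpr1 UMIs, each of 76978 to 126273 UMIs in all, held 12.1% of the gene's UMIs, and without the 3 top cells of each library the levels were 79.5 and 51.7 CPM (1.54-fold). None of those 3 cells was called a doublet by Scrublet, and all 3 carried Il17a and Il2. A thinned Itpr1 UMI was found in 22.5% (19.4 to 25.8) and 18.6% (16.3 to 21.2) of cells, with overlapping intervals. At a depth of 10000 UMIs the Itpr1 shares were 40.6% (36.8 to 44.4) and 30.7% (27.8 to 33.7), and without thinning 58.0% (54.2 to 61.6) and 46.5% (43.4 to 49.6), apart at both settings.

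The 3 genes for the catalytic subunit of calcineurin did not all differ in the same direction. Ppp3ca, the alpha isoform, was at 25.3 CPM (23.0 to 27.7) in the deficient-labelled and 15.8 CPM (14.3 to 17.5) in the wild-type-labelled library, a ratio of 1.60 (1.39 to 1.83). Ppp3cb, the beta isoform, was at 35.5 CPM (32.8 to 38.3) and 43.4 CPM (40.9 to 46.1), a ratio of 0.817 (0.739 to 0.902). Ppp3cc, the gamma isoform, was at 40.4 CPM (37.5 to 43.5) and 36.4 CPM (34.0 to 38.9), with a ratio of 1.11 (1.005 to 1.23). All 3 lay within 2-fold, and for Ppp3ca the thinned shares of cells with a UMI were apart, at 10.3% (8.16 to 12.8) in the deficient-labelled and 6.08% (4.68 to 7.74) in the wild-type-labelled library. Ppp3r1, the calcium-binding regulatory subunit that every catalytic isoform needs, stood at 16.8 CPM (14.9 to 18.8) and 18.4 CPM (16.7 to 20.1), a ratio of 0.913 whose interval of 0.786 to 1.06 includes 1. Wdr92 overlaps Ppp3r1 on the same strand (13.9 and 15.5 CPM), so the assignment of Ppp3r1 reads is uncertain.

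Of the 3 genes for proteins that restrain calcineurin, none reached 2-fold. Rcan1 encodes a calcineurin inhibitor that is itself induced by calcineurin and NFAT in many cell types. It had 164 UMIs (9.16 CPM) in the deficient-labelled library against 193 UMIs (7.89 CPM) in the wild-type-labelled one, a ratio of 1.16 with an interval of 0.937 to 1.44. The related gene Rcan3 was at 8.38 CPM (150 UMIs) and 12.5 CPM (305 UMIs), a ratio of 0.672 (0.549 to 0.820). Its log2 ratio of -0.52 was -0.05 with the same shares of the cytokine classes and -0.13 in thinned cells. The value with the same shares took in 26 wild-type-labelled cells with Ifng and Il2 that held 2 Rcan3 UMIs. A thinned Rcan3 UMI was found in 4.15% and 4.38% of cells. Cabin1, a nuclear protein that binds calcineurin, was at 93.2 CPM (88.8 to 97.8) and 79.0 CPM (75.5 to 82.6), a ratio of 1.18 (1.10 to 1.26). Rcan1, Rcan3 and Ppp3r1 stayed under 20 CPM in both libraries. A thinned Rcan1 UMI was found in only 3.30% and 4.98% of cells, and its log2 ratio of 0.19 was -0.63 in thinned cells, so no direction is given for Rcan1.

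The cells were then sorted by the cytokine transcripts they held, since the study asks about interleukin-17 production by CD8 T cells. A cell counted as positive for Il17a, Il17f, Ifng or Il2 with at least 5 UMIs of it per 5000, which gave 8 classes that do not overlap. The classes called Il17a alone and Ifng alone held cells under 5 Il2 UMIs per 5000. All classes with Il17a or Ifng took cells with or without Il17f. The class with Il17a and Ifng and the Il17f class took cells with or without Il2. The deficient-labelled library held 239 cells with Ifng and Il2 but not Il17a (34.2%), against 26 (2.59%) in the wild-type-labelled library, and 93 cells with Il17a and Il2 but not Ifng (13.3%), against 372 (37.1%). The class with none of the 4 cytokines held 77 and 92 cells, with median depths of 15118 and 14417 UMIs, below those of its libraries. In 6 classes each library had at least 30 cells.

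Orai1 was higher in the deficient-labelled library in all 6 of these classes, each with an interval above 1. The ratio was 2.83 in cells with Il17a and Ifng (349 against 123 CPM), 2.64 in those with Il17a and Il2 (334 against 127 CPM) and 3.66 in those with Il17a alone (303 against 83.0 CPM). In cells with Il17f but neither Il17a nor Ifng it was 4.03 (368 against 91.4 CPM), and in cells with Il2 alone 3.74 (374 against 99.9 CPM). In cells with none of the 4 cytokines it was 1.88 (1.54 to 2.29), at 190 against 101 CPM. The class with Ifng and Il2 gave 247 in the deficient-labelled against 162 CPM in the wild-type-labelled library, where it held 26 cells. Itpr1 and Ppp3ca were likewise above 1 in all 6 classes, with intervals above 1 in 5 and in 3 of them.

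Counted by class, 1 or 2 of the 10 genes lay past 2-fold on the higher side in the deficient-labelled library and 0 on the lower side. The count was 1 in cells with Il17a and Ifng (background 3.99% of genes higher and 4.03% lower), with Il17a alone (4.8% and 2.54%), with Il17f (4.17% and 3.37%) and with Il2 alone (5.25% and 2.56%), and that gene was Orai1 each time. It was 2 in cells with Il17a and Il2 (5.08% and 1.4%), where Itpr1 joined Orai1 at 144 against 42.3 CPM. It was also 2 in cells with none of the 4 (3.72% and 2.14%), where Itpr1 was at 138 against 56.0 CPM and Ppp3ca at 65.4 against 22.9 CPM. The Itpr1 value in cells with Il17a and Il2 rested on 3 of 93 cells, those with 76, 73 and 43 of 364 UMIs. Without the 3 top cells of the class in each library it was 77.4 against 38.8 CPM, a ratio of 1.995, just under 2-fold.

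**Figure D3:**
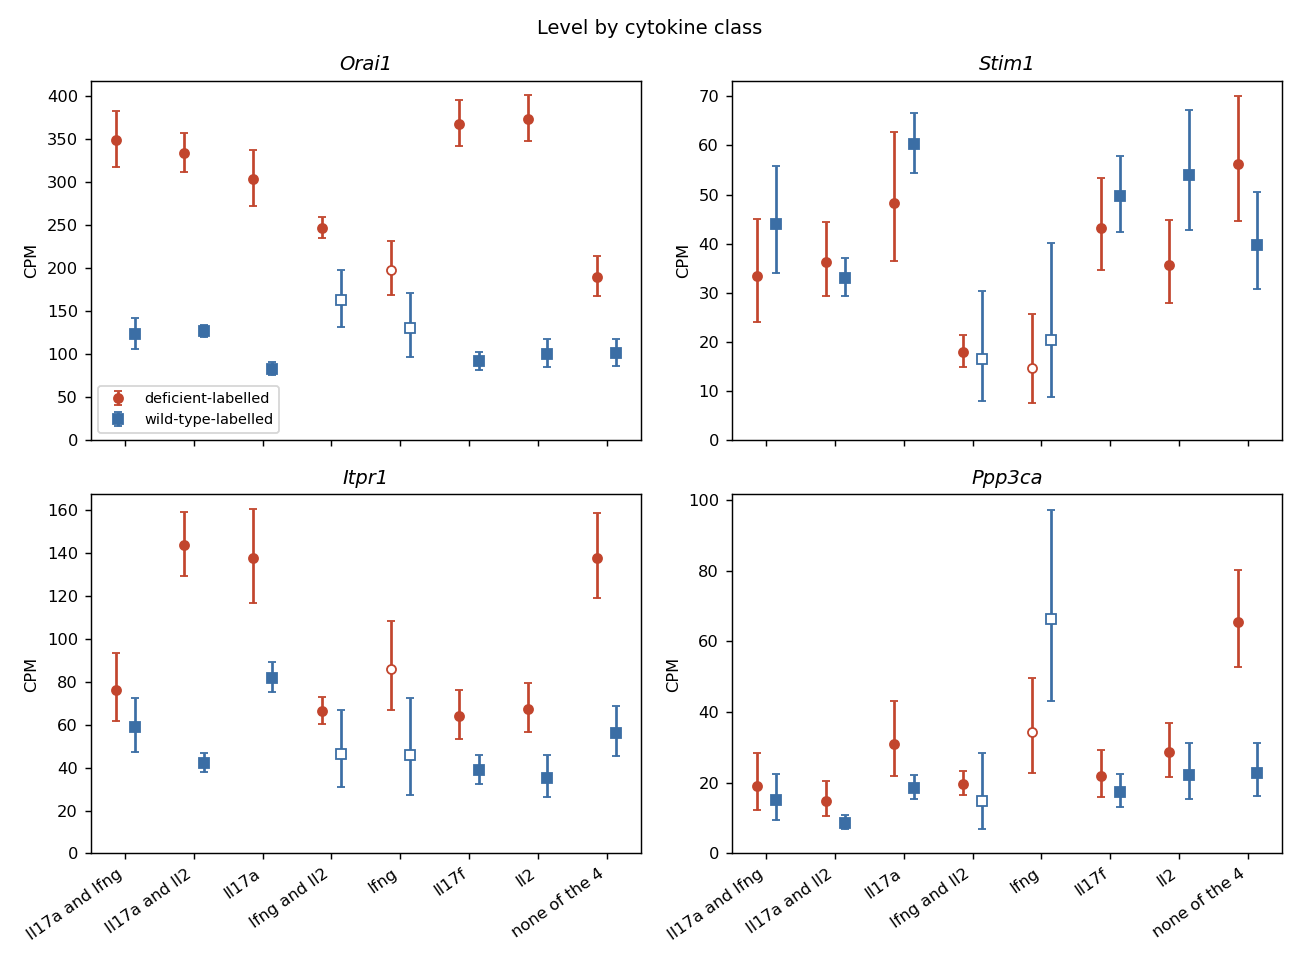
Level (CPM, linear axis from 0) of Orai1, Stim1, Itpr1 and Ppp3ca in the 8 cytokine classes of the deficient-labelled (circles, left of each pair) and wild-type-labelled (squares) library, with exact Poisson 95% intervals; open symbols are classes of under 30 cells in that library. Orai1 is higher in the deficient-labelled library in every class, and Stim1 is lowest in both libraries in the classes with Ifng but not Il17a.

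Within a library, the order of the classes differed from gene to gene. In the deficient-labelled library Orai1 ran over 7 classes of at least 30 cells from 374 CPM in cells with Il2 alone to 190 CPM in cells with none of the 4, and in the wild-type-labelled library over 6 such classes from 127 CPM in cells with Il17a and Il2 to 83.0 CPM in cells with Il17a alone. Intervals of neighbours in that order overlapped for 4 of 6 and for 5 of 5 pairs. Over the same classes of at least 30 cells Ppp3ca was highest in cells with none of the 4 in both libraries, at 65.4 and 22.9 CPM, and lowest in cells with Il17a and Il2, at 14.99 and 8.63 CPM. The 21 wild-type-labelled cells with Ifng alone, under that limit, stood at 66.3 CPM (43.3 to 97.1). Rcan1 ran from 5.56 to 13.9 CPM in the deficient-labelled and from 5.90 to 10.2 CPM in the wild-type-labelled library, and all neighbouring classes had overlapping intervals.

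The other 7 genes were past 2-fold at 20 CPM or more in none of the 6 classes. Stim1 was lower in the deficient-labelled library in 4 of 6 classes and higher in 2, with ratios of 0.659 to 1.42 and 1 interval apart from 1 on each side. It was at 56.2 CPM (44.6 to 70.0) in deficient-labelled and 39.7 CPM (30.7 to 50.5) in wild-type-labelled cells with none of the 4 cytokines, and at 35.6 and 54.0 CPM in those with Il2 alone. Without the 3 top cells of the class in each library, the Stim1 ratio in cells with Il17a and Il2 was 0.911 instead of 1.10. In cells with none it was then 1.65. Ppp3cb was lower in 5 of 6 classes (0.697 to 1.13), with 2 intervals below 1. Ppp3cc and Ppp3r1 were each higher in 5 of 6, with intervals above 1 in 1 and in 2 of them. For Ppp3cc those ratios included 1.002 in cells with Il17a alone (0.819 without the 3 top cells of each library) and 1.03 in cells with none. Ppp3r1 stood at 27.2 against 15.1 CPM in cells with Il17a and Il2, although over all cells its ratio was 0.913. That Ppp3r1 value rested on few cells, since 3 of 93 deficient-labelled cells held at least 50% of its 69 UMIs, among them 2 of the 3 cells highest in Itpr1. Without the 3 top cells of the class in each library Ppp3r1 was at 15.3 against 13.6 CPM, a ratio of 1.12, and it was then higher in 3 of 6 classes. Cabin1 was higher in 4 of 6, with intervals above 1 in 2 of them, at 113 against 85.2 CPM in cells with Il17f and 109 against 80.7 CPM in cells with none. Rcan1 was higher in 3 and lower in 3, with 1 interval apart from 1, in cells with Il17f (13.9 against 6.51 CPM, ratio 2.14, 1.18 to 3.92, from 28 and 22 UMIs). Rcan3 was higher in 2 and lower in 4 with 0 intervals apart from 1, and its lowest ratio was 0.462 (0.177 to 1.09) in cells with Il17a and Ifng. Without the 3 top cells of the class in each library it was 0.218 there, and 0.547 instead of 1.17 in cells with Il17a and Il2. Those classes held only 8 and 29 deficient-labelled Rcan3 UMIs before cells were left out.

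Over classes of at least 30 cells, several of these genes had their highest class in common between the libraries. Ppp3r1 was highest in cells with Il17a alone, at 29.4 CPM in the deficient-labelled and 26.05 CPM in the wild-type-labelled library, and so was Rcan3, at 13.8 and 18.8 CPM. Ppp3cc was highest in cells with none of the 4, at 57.7 and 55.98 CPM. Ppp3cb was lowest in cells with Il17a and Ifng, at 22.3 and 31.5 CPM. Stim1 had different highest classes, none of the 4 in the deficient-labelled library and Il17a alone (60.3 CPM) in the wild-type-labelled one. For Ppp3cb, Ppp3cc, Ppp3r1, Rcan3 and Cabin1, all 6 and all 5 pairs of neighbouring classes had overlapping intervals, so the orders are those of point values.

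Cells with Ifng but not Il17a were set against cells with Il17a but not Ifng inside each library, 267 against 136 cells in the deficient-labelled and 47 against 579 in the wild-type-labelled library. Stim1 was lower in the Ifng cells of both. It stood at 17.5 against 40.1 CPM in the deficient-labelled library (ratio 0.438, 0.343 to 0.558) and at 18.1 against 44.5 CPM in the wild-type-labelled library (0.406, 0.239 to 0.647). The second value rests on 18 UMIs in the Ifng cells, and with a cytokine minimum of 1 UMI its log2 ratio was -0.62 instead of -1.25, within 2-fold. A thinned Stim1 UMI was found in 5.62% against 15.4% of deficient-labelled cells and in 10.6% against 15.03% of wild-type-labelled cells.

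In the deficient-labelled library 3 of the 10 genes lay past 2-fold on the lower side in Ifng cells and 0 on the higher side, against 7.13% and 0.911% of 5709 genes. Those 3 were Stim1, Itpr1 (68.3 against 142 CPM, ratio 0.482) and Ppp3r1 (10.6 against 27.9 CPM, ratio 0.379). The count became 0 when the 29 deficient-labelled cells and 33 wild-type-labelled cells over 60000 UMIs were left out, with log2 ratios of -0.95, -0.57 and -0.90 in place of -1.15, -1.04 and -1.32. In the wild-type-labelled library 1 gene lay past 2-fold on each side, lower and higher, against 3.68% and 2.27% of 5546 genes. The lower one was Stim1. The higher one was Ppp3ca, at 35.1 against 12.8 CPM (ratio 2.75, 1.87 to 3.96) from 35 UMIs, of which 26 lay in the 6 cells with a UMI among the 21 with Ifng but no Il2. The median log2 ratio of all genes in these contrasts was -0.20 and -0.11.

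Orai1 went in opposite directions in this contrast. In the deficient-labelled library it was at 242 CPM in cells with Ifng and 324 CPM in cells with Il17a, a ratio of 0.745 (0.693 to 0.803). In the wild-type-labelled library the same levels were 150 and 108 CPM, a ratio of 1.38 (1.16 to 1.63). Median depths of the Ifng and Il17a cells also went in opposite directions, at 24168 against 21070 UMIs (deficient-labelled) and 17575 against 21754 UMIs (wild-type-labelled). The part of depth in these values was not tested. By the number of Ifng UMIs per 5000, from 0 through 1 to 4 and 5 to 24 up to 25 or more, Orai1 was at 327, 315, 282 and 248 CPM in the deficient-labelled library and at 103, 113, 136 and 131 CPM in the wild-type-labelled library. Over the same bins Itpr1 was at 109, 102, 83.7 and 64.0 CPM in the deficient-labelled library, and at 55.4, 46.9, 44.8 and 62.3 CPM in the wild-type-labelled library. By the number of Il17a UMIs Orai1 was at 259, 302, 331 and 330 CPM in the deficient-labelled library and at 98.8, 109, 97.9 and 112 CPM in the wild-type-labelled library.

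**Figure D4:**
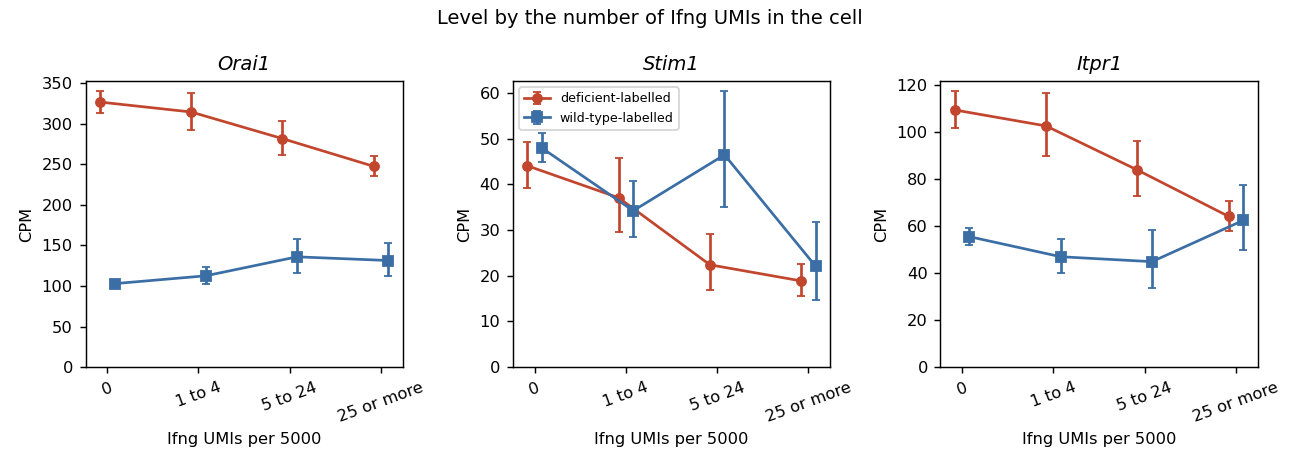
Level (CPM, linear axis from 0) of Orai1, Stim1 and Itpr1 in cells binned by their Ifng UMIs per 5000, in the deficient-labelled (circles) and wild-type-labelled (squares) library, with exact Poisson 95% intervals. The Orai1 levels run down to 248 CPM in the deficient-labelled cells with 25 or more Ifng UMIs, while the wild-type-labelled cells of that bin stand at 131 CPM, above their 103 CPM at 0 Ifng UMIs.

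Cells with any of the 4 cytokines were set against cells with none. In the deficient-labelled library 1 of the 10 genes lay past 2-fold on the lower side and 0 on the higher side, against 6.19% and 1.33% of 5948 genes. That gene was Ppp3ca, at 21.8 against 65.4 CPM (ratio 0.334, 0.265 to 0.424), with a thinned UMI in 8.05% against 28.6% of cells. In the wild-type-labelled library 0 were past 2-fold either way, against 2.2% lower and 0.943% higher of 5725 genes, and Ppp3ca was at 15.2 against 22.9 CPM (ratio 0.665, 0.475 to 0.956). Orai1 was at 300.03 against 190 CPM in the deficient-labelled library (ratio 1.58, 1.40 to 1.79) and at 108 against 101 CPM in the wild-type-labelled library (1.07, 0.914 to 1.26). The wild-type-labelled log2 ratio of Orai1, 0.09, was -0.21 with the mean of per-cell CPM and -0.16 in thinned cells, so no direction is given for it. Cells with any cytokine were deeper, at medians of 22407 and 21394 UMIs (deficient-labelled and wild-type-labelled), against 15118 and 14417 UMIs for cells with none, and the part of depth or cell state in these values was not tested.

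Il2, a classic NFAT target gene, divided the same cells in another way, a split chosen after the values were seen. Classes with Il2 were set against the matching class without it among Il17a cells, among Ifng cells and among cells with neither interleukin-17 gene nor Ifng, in each library, which gives 6 pairs. Orai1 was higher with Il2 in 5 of 6 pairs, 3 of them with an interval above 1. In Il17a cells it was at 334 against 303 CPM in the deficient-labelled (ratio 1.10, 0.970 to 1.25) and at 127 against 83.0 CPM in the wild-type-labelled library (1.53, 1.38 to 1.69). Ppp3ca was lower with Il2 in 6 of 6 pairs, 5 with an interval below 1, such as 14.99 against 31.1 CPM in deficient-labelled and 8.63 against 18.5 CPM in wild-type-labelled Il17a cells. Ppp3cc, Ppp3r1 and Rcan3 were also lower with Il2 in 6 of 6 pairs, with intervals below 1 in 3, 2 and 1 of them. Ppp3cb and Rcan1 were lower in 5 pairs each, with intervals below 1 in 1 and 0. Stim1 and Itpr1 were lower in 4 each, with intervals below 1 in 2 and 3. Cabin1 was higher with Il2 in 4, 3 of them with an interval above 1, and lower in 2. Of those 2, 1 had an interval below 1, in deficient-labelled Ifng cells (ratio 0.702, 0.566 to 0.879). Shares over all genes were not counted for this split, so whether a general shift gave these directions was not tested. Pairs of Ifng cells held as few as 21 cells.

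Among other genes of the pathway, most lay within 2-fold between the libraries. Of 62 listed genes with a row of their own, 32 reached 20 CPM, and of these 3 lay past 2-fold on the higher and 2 on the lower side, against 2.27% and 2.08% of all genes. Their median log2 ratio was -0.04, beside 0.03 over the 5584 genes. The highest were Lrrk2, a kinase reported to restrain NFAT in mouse macrophages (28.8 against 6.71 CPM), Camk2d, a calmodulin-dependent kinase subunit (459 against 127 CPM), and Nfatc1. The lowest were Nfatc2, the NFAT factor already present in resting T cells (6.48 against 24.7 CPM), Tesc, a calcium-binding relative of the calcineurin regulatory subunit (24.8 against 62.0 CPM), and Kcnn4, the calcium-activated potassium channel that sustains calcium entry (88.1 against 162 CPM, under 2-fold). Orai2 and Orai3, paralogs of Orai1, had 12.1 against 8.997 CPM and 8.44 against 6.87 CPM. Stim2, the second store sensor, had 69.0 against 71.1 CPM. The T-cell kinase gene Zap70 had 142 against 77.8 CPM.

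**Figure D5:**
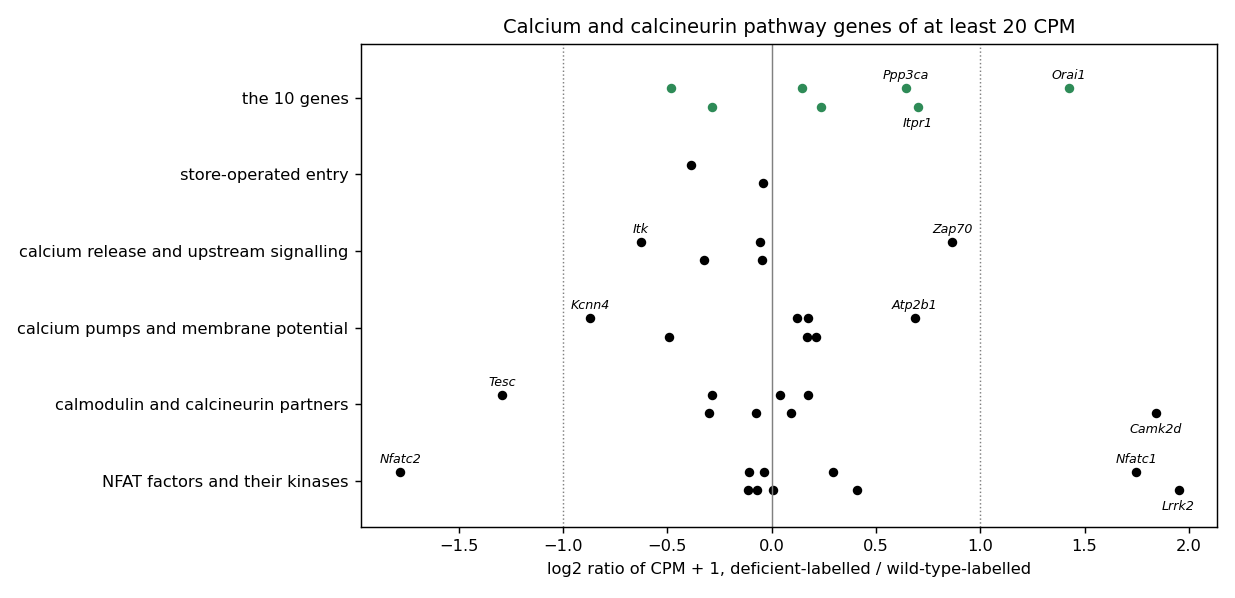
log2 ratio of CPM + 1, deficient-labelled over wild-type-labelled, of the 7 genes described here (top row) and the 32 other pathway genes that reached 20 CPM, by subgroup, with dotted lines at 2-fold; genes with a ratio of at least 0.6 in size are named. Lrrk2, Camk2d, Nfatc1 and Orai1 lie beyond the upper line and Nfatc2 and Tesc beyond the lower one.

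For the 6 genes at 20 CPM or more in both libraries, the genes whose levels over the cytokine classes were most like theirs were sought among 2901 genes averaging at least 50 CPM. Pearson's r was taken over 13 points (the classes of at least 30 cells in either library, each library centred on its own mean), which share the library and the class calls, and it is a description only. For Orai1 they were Rab11fip1 (r = 0.87), Ndfip1 (0.86) and Map2k3 (0.86). For Stim1 they were Pcbp1, Glg1 and Dnaja1 (0.87 to 0.85), and for Itpr1 Naa10, Hmgb2 and Selenoh (0.95 to 0.92). For Ppp3cb they were Stag1, Fbxl17 and Lnpep (0.95 to 0.93), for Ppp3cc Sys1, Crip1 and Susd6 (0.96 to 0.89), and for Cabin1 they included Rbm25 (0.97) and Ddx24 (0.93).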

How the data were processed

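Each library was deposited as a matrix of raw UMI counts per gene and barcode. Per the file headers, Cell Ranger 7.0.0 made it, and the submitters' processing notes name mm10. The sources used here do not give the annotation or say if introns were counted. The barcodes kept had 500 or more genes and no more than 10% mitochondrial UMIs (709 of 754 and 1018 of 1149, deficient-labelled and wild-type-labelled), and 12 multiplexing tags in the deposited gene table were left out of the totals. UMIs were summed per library or class and divided by that total (CPM); 1 UMI is worth 0.0559 and 0.0409 CPM, and a count of 0 allows 0.168 and 0.123 CPM (3 counts).

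Levels carry exact Poisson intervals, with exact binomial (Clopper-Pearson) ones for shares and conditional binomial ones for ratios, all at 95% and for counting error only. Past 2-fold means at least 20 CPM in 1 group and a difference of at least 1 in log2(CPM + 1). Thinning to 5000 UMIs without replacement left out 11 and 14 cells. Scrublet (scanpy 1.11.5, expected rate 5%) called 5 and 6 doublets, which were kept. Alternatives covered scaling (edgeR 4.0.16 TMM and others), pseudocount, floor, barcode filter, doublets, weighting, thinning and the cytokine minimum. The members and lists were chosen with earlier results of these data known. All 10 genes entered every comparison of levels, but for comparisons within a library the text does not always name all of them. Of the pathway list it names the 3 highest and 3 lowest ratios above 20 CPM, and Orai2, Orai3, Stim2 and Zap70 were added after their values were seen. Some genes that these rules could name are not reported here. Of the symbols listed, 62 had 1 row each. Counts were also simulated for the comparison of the 2 libraries as Poisson draws, with no spread between cells or between libraries. In these, all 50 genes changed 2.5-fold and 0 of 5072 unchanged genes were called, and 95.4% of 500 ratio intervals held the true value. This checks the calculation and cannot show how often calls or intervals hold in the real data. Coordinates come from GENCODE M21. Python 3.11.15, NumPy 2.4.6, SciPy 1.17.1, pandas 2.3.3 and R 4.3.3 were used.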

Additional observations from a re-analysis of the deposited data

Results flagged for a closer look

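Orai1 went in opposite directions in the 2 libraries when cells with Ifng but not Il17a were compared with cells with Il17a but not Ifng: the ratio was 0.745 among deficient-labelled cells and 1.38 among wild-type-labelled cells. With 1 library each, this difference was not tested. The log2 ratio stayed below 0 in the deficient-labelled library (-0.53 to -0.30) and above 0 in the wild-type-labelled library (0.26 to 0.76) under all 9 alternatives run on it. Median depths of these cells also went in opposite directions in the 2 libraries, and the part of depth was not tested.

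Among the barcodes that the filter left out, Itpr1 stood at 427 CPM (329 to 544) in 45 deficient-labelled and at 197 CPM (158 to 243) in 131 wild-type-labelled barcodes. It is listed here because these barcodes enter no comparison other than the alternative with all barcodes, and the intervals are apart. The values rest on 65 and 88 UMIs.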

How the results depend on the processing

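Orai1 kept its direction and its place past 2-fold between the libraries under all 12 alternatives (log2 ratio 1.37 to 1.45). Weighting both libraries to the same shares of the cytokine classes gave 2 of the 10 genes past 2-fold instead of 1, since Itpr1 reached a log2 ratio of 1.05, and it turned Ppp3r1 from -0.12 to 0.31. In deficient-labelled cells with Il17a and Il2, leaving out the top 3 cells took Itpr1 from 144 to 77.4 CPM and Ppp3r1 from 27.2 to 15.3 CPM. The weighting was not repeated without those cells. It also took in wild-type-labelled classes of 26 and 21 cells, under the limit of 30. Thinned cells turned Rcan1 from 0.19 to -0.63. Rcan3 moved from -0.52 to -0.13 in thinned cells and to -0.05 with the same class shares. A floor of 50 CPM left 3 pathway genes past 2-fold instead of 5. A cytokine minimum of 1 UMI gave 1 instead of 2 genes between Ifng and Il17a cells of the wild-type-labelled library, where Stim1 moved to -0.62. Within classes it gave 5 instead of 8 calls between the libraries, and thinned cells gave 14. These counts are not all over the same classes, since 4 to 6 were compared. At a minimum of 1 UMI the class with none of the 4, which gave 2 of the 8 calls, held 7 and 8 cells and dropped out. Shares over all genes were not counted for the 5 and the 14. Between cells with any cytokine and cells with none, the deficient-labelled count of 1 was 3 with the mean of per-cell CPM, 3 in thinned cells and 2 without cells over 60000 UMIs, and the wild-type-labelled count of 0 was 1 in thinned cells. Orai1 changed sign in that wild-type-labelled contrast, at -0.21 with the mean of per-cell CPM and -0.16 in thinned cells instead of 0.09. Leaving out cells over 60000 UMIs, chosen after seeing the data as was leaving out the top 3 cells of a class, gave 0 instead of 3 genes between Ifng and Il17a cells of the deficient-labelled library. Without thinning, 4 instead of 2 genes, Itpr1 among them, had shares of cells apart, and 3 did at a thinning depth of 10000 UMIs. Genes with shares apart were not counted over all genes, so these counts have no background to be read against. The cause of these shifts was not tested. Other scalings moved the median gene by at most 0.021 in size. The contrast of any cytokine with none was not run at a minimum of 1 UMI, which left 7 and 8 cells without a cytokine. No paired analysis was possible because each group has 1 library. One library per group and 150 to 305 UMIs for Rcan1 and Rcan3 limit the precision.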

Other observations

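In the barcodes that failed the filter on genes or mitochondrial UMIs, Orai1 stood at 164 CPM (106 to 242) among 45 deficient-labelled barcodes and 82.9 CPM (58.4 to 114) among 131 wild-type-labelled ones. Cabin1 stood at 217 CPM (149 to 304) and 208 CPM (168 to 255) there, against 93.2 and 79.0 CPM in kept cells. Stim1 was at 105 CPM (60.0 to 171) and 62.7 CPM (41.7 to 90.7), and Rcan3 had 0 UMIs (up to 24.2 CPM by the exact interval) and 8 UMIs (17.9 CPM). These barcodes held 152317 and 446332 UMIs in all.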
